A study of Mus musculus with 14 samples.

Results

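Cholesterol and fatty acids are built from acetyl-CoA by enzymes whose genes are switched on together when a cell runs short of sterol. The transcription factors that do this, the sterol regulatory element-binding proteins (SREBPs, made from Srebf1 and Srebf2), are held in the endoplasmic reticulum with their escort protein Scap by the sterol-sensing anchors Insig1 and Insig2, and are cut free when sterol falls. Regulatory T cells (Tregs), the Foxp3-expressing T cells that restrain other lymphocytes, use the mevalonate branch of this pathway for sterols and for the isoprenoid groups attached to signalling proteins. The 33 genes described here are listed enzymes of sterol synthesis and of fatty acid synthesis, the SREBP regulators, the sterol carrier Stard4 and the sterol exporters Abca1 and Abcg1. They were chosen by name and function, with earlier results of these data known, and all 33 were found by NCBI Gene number among the 27179 genes of the count table.

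RNA was sequenced from Tregs sorted directly from mice by a FoxP3-YFP reporter, in 14 libraries from spleen and from MC38 tumors (a mouse colon carcinoma line grown in the flank) taken at the tumor endpoint. In each tissue, 4 libraries came from B6 mice labelled IL23RWT/WT FoxP3Cre-YFP (WT) and 3 from B6 mice labelled IL23RFlox/Flox FoxP3Cre-YFP (Flox), in which Cre driven by Foxp3 is meant to remove the interleukin-23 receptor from Tregs only. All 4 groups therefore carry the Cre-YFP allele and come from mice with a tumor. The study states Flox against WT within a tissue as its comparison, and the labels say neither whether replicates are separate mice nor how old the mice were, which leaves every p-value a measure of the spread among these libraries alone.

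Each library held 4859099 to 10333892 counts over 13657 to 15312 genes with any count. The value of 3 counts, used as the detection floor, was 0.241 to 0.580 CPM (counts scaled to the library total, with TMM factors). The summed level of 8 Treg genes was 2420 to 3986 CPM in spleen and 4703 to 8920 CPM in tumor, and all 8 were detected in every group. Ikzf2 was the largest part of this sum in every library. Foxp3 overlapped between the tissues, at 105 to 276 CPM in spleen and 92.0 to 232 CPM in tumor. The check of the targeted gene did not follow the labels: Il23r had 17 counts over the Flox-labelled and 2 over the WT-labelled tumor libraries, and 10 against 2 in spleen, with the deleted exons not given in the sources used here. Xist, which is transcribed from the inactive X chromosome of female cells, was at 3.22 CPM or less in every Flox-labelled library and at 56.8 CPM or more in every WT-labelled one, while the Y-linked Ddx3y was at 285 CPM or more in every Flox-labelled library. The levels of these sex-linked genes and the genotype label cannot be told apart in these libraries. The WT replicate 2 libraries of both tissues held Ddx3y reads beside Xist, 30.0 CPM in spleen and 126.8 CPM in tumor, where the other WT-labelled libraries had 0.627 CPM or less. Of the other 3 Y-linked genes checked (Uty, Kdm5d and Eif2s3y), Spleen WT 2 held 2.41 to 3.45 CPM, while TIL WT 2, at 0.216 to 0.324 CPM, stayed at the level of the other WT-labelled tumor libraries. The effect of both libraries on the results is given by leaving them out. The libraries are called Flox-labelled and WT-labelled for these reasons, named by tissue (TIL for tumor), label and replicate number, and values are listed in the order of the replicate numbers.

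Tumor Tregs had higher levels than spleen Tregs of 10 of the 33 genes and a lower level of 1, counted over all 14 libraries at an adjusted p under 0.05 (edgeR's quasi-likelihood test, Benjamini-Hochberg adjustment over all 12008 genes tested). Of all genes tested, 13% passed in the higher and 11.2% in the lower direction. The 10 genes were Msmo1, Cyp51, Nsdhl, Hsd17b7 and Ebp of the late sterol steps, Idi1 of the mevalonate steps, Insig1 and Srebf1 of the regulators, the carrier Stard4, and the fatty acid desaturase Fads2, and the gene that was lower was the exporter Abcg1. One of the higher genes, Fads2, passed the filter on low counts only through tumor, which leaves 9 that did not depend on this. The median log2 fold change of the 33 genes was 0.80, beside 0.02 for all genes tested, and 23 of them had a positive and 10 a negative value. Without both WT replicate 2 libraries, 9 of the 33 passed, and with DESeq2 15 did. Among these 15 were Mvd (adjusted p = 0.0292) and Fasn (0.033) as lower, and Fdps (0.0258), Fads1 (0.0375) and Insig2 (0.0439) as higher. The number of all genes that passed also moved with the fit, from 1823 to 3747 over the alternatives, beside 2897 in the main fit. These counts of the 33 are therefore not read on their own. With edgeR, no gene tested passed between Flox-labelled and WT-labelled libraries in either tissue. In bulk RNA, fewer cells of a type and less RNA per cell cannot be told apart.

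For 4 of the 10 genes, Msmo1, Cyp51, Nsdhl and Insig1, every tumor library lay above every spleen library, which held for 5.3% of all genes tested. Their promoters are shown because these are the members whose tissue groups did not overlap. Each window runs from 250 bases before to 50 bases after a RefSeq transcript start on GRCm38.p6, 5′ to 3′ on the gene's own strand, and the capitals mark CCAAT boxes (CCAAT, bound by NF-Y) and, in Insig1, a match to CACNCCAC, a form of the sterol response element that SREBPs bind, both searched on either strand. The windows lie at chr8:64733529-64733828 on the minus strand for Msmo1, chr5:4104648-4104947 on the minus strand for Cyp51, chrX:72918271-72918570 on the plus strand for Nsdhl and chr5:28071162-28071461 on the plus strand for Insig1.
Msmo1: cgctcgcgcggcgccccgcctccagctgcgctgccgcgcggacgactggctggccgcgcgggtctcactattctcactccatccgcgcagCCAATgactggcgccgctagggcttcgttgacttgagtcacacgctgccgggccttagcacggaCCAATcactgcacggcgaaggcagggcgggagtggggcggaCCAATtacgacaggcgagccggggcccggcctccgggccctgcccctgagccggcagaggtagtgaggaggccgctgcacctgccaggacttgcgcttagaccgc
Cyp51: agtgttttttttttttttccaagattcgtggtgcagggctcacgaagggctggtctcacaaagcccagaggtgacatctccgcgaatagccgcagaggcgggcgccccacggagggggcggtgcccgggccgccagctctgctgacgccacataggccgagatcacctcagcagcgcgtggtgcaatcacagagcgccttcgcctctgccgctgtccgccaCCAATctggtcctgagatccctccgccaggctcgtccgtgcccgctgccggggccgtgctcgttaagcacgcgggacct
Nsdhl: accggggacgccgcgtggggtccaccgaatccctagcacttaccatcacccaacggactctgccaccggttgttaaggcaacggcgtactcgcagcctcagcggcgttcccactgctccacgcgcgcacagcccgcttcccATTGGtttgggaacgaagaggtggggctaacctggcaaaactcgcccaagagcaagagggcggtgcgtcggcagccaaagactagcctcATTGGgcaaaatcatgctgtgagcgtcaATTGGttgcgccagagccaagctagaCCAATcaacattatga
Insig1: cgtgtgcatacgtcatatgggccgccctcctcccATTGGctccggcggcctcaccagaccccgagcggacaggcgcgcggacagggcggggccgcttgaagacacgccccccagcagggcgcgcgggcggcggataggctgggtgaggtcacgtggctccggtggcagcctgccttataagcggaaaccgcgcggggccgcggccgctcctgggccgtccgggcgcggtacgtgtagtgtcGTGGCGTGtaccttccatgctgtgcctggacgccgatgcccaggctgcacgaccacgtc

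The Msmo1 window held 3 CCAAT boxes, that of Nsdhl 4, and those of Cyp51 and Insig1 1 each, and the CACNCCAC match of Insig1 began at position -9 on the opposite strand. RefSeq windows were at hand for 25 of the 33 genes, 33 windows in all. A CCAAT box was found in 19 of the 25 genes, where 37.4% of all 32851 windows and 41.1% of all 27025 genes with a window held one. CACNCCAC was found in 3 of the 25, where 7.12% of all genes held it, the E-box CACGTG in 6, where 8.09% did, and the GC box GGGCGG in 21, where 38.2% did. A match describes the letters of these windows and is not a binding site.

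**Figure D1:**
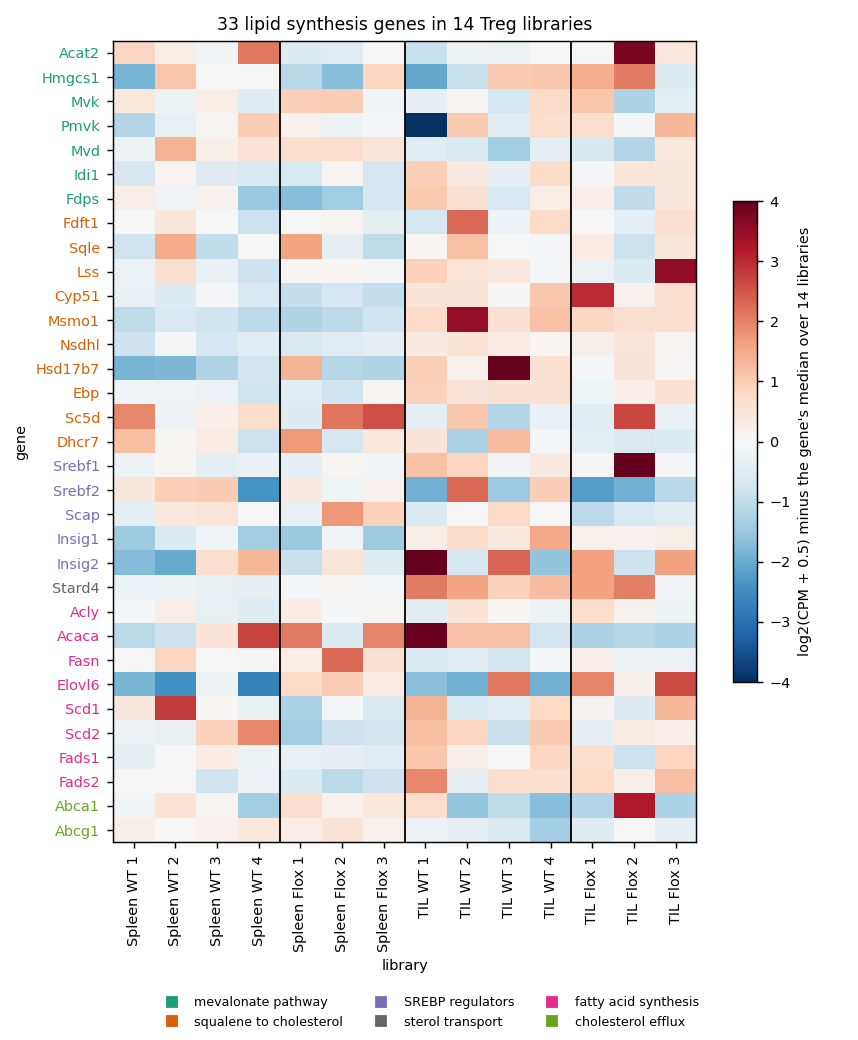
Levels of the 33 genes (rows, grouped by role in colour) in the 14 libraries (columns), as log2(CPM + 0.5) minus the median of that gene over all libraries, with the colour scale ending at -4 and 4. Most rows of the sterol block are redder in the 7 tumor (TIL) columns, and single dark cells such as Hsd17b7 in TIL WT 3 (269.8 CPM) and Srebf1 in TIL Flox 2 (258 CPM) stand apart from the rest of their rows.

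Levels differed widely among the 33 genes. Per kilobase of exon, the median level over the 14 libraries was 182 CPM for Abcg1, 35.3 CPM for Pmvk, 25.8 CPM for Insig1 and 14.6 CPM for Hmgcs1, and it was lowest for Fads2, at 0.165 CPM. Single libraries carried much of the spread: in 8 of the 33 genes the highest library was at least 3 times the second, which held for 15.9% of the 12008 genes tested. All 8 of those highest libraries came from tumor (9.34% of all genes tested met both conditions), and they were spread over TIL WT 1, 2 and 3 and TIL Flox 1, 2 and 3. In 25 of the 33 genes the highest of the 14 libraries was a tumor library, as it was in 56.5% of all genes tested.

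The mevalonate group of 7 genes makes isoprenoid precursors, from the condensation of acetyl-CoA units (Acat2, Hmgcs1) through mevalonate (Mvk, Pmvk, Mvd) to isoprenoid diphosphates (Idi1, Fdps). Of these, 1 passed between tumor and spleen, as higher, where 13% of all genes tested did. Idi1, which isomerizes isopentenyl diphosphate, stood at 2.61, 4.74, 2.96 and 2.70 CPM in the WT-labelled and 2.64, 4.55 and 2.55 CPM in the Flox-labelled spleen libraries. In tumor its level was 8.78, 5.72, 3.32 and 7.48 CPM in the WT-labelled and 4.12, 6.21 and 6.13 CPM in the Flox-labelled libraries. In tumor 5 of the 7 libraries lay above every spleen library, and TIL WT 3 and TIL Flox 1 lay within the spleen range. The log2 fold change of Idi1 over both labels was 0.96 ± 0.32 (SE, edgeR adjusted p = 0.0476), and the call was lost with any 1 of 11 libraries left out, at adjusted p = 0.0552 to 0.105.

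Hmgcs1, the enzyme that joins acetyl-CoA to acetoacetyl-CoA on the way to mevalonate, was variable within every group. Its level was 17.98, 147, 67.9 and 66.6 CPM in WT-labelled and 30.7, 20.3 and 122 CPM in Flox-labelled spleen libraries, and 15.9, 35.7, 139 and 143 CPM and 184, 280.0 and 46.3 CPM in the corresponding tumor libraries. The tissues overlapped, and the log2 fold change of 0.95 ± 0.66 did not pass (edgeR adjusted p = 0.319). Acat2, which makes acetoacetyl-CoA in the cytosol, was at 7.63, 4.98, 3.78 and 19.5 CPM and 2.74, 2.91 and 4.13 CPM in WT-labelled and Flox-labelled spleen libraries, and at 2.01, 3.56, 3.46 and 4.20 CPM and 4.12, 62.0 and 5.70 CPM in those from tumor. TIL Flox 2 held the highest value, and without that library the log2 fold change of Acat2, tumor over spleen, went from 0.80 to -0.33 and passed in neither case.

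Among the other mevalonate genes, Fdps, which makes farnesyl diphosphate, ranged from 2.22 to 10.03 CPM in spleen and from 4.06 to 17.9 CPM in tumor (log2 fold change 1.08 ± 0.42, edgeR adjusted p = 0.0779). Mvd, the decarboxylase before Idi1, had the opposite sign: it ranged from 5.43 to 17.1 CPM in spleen and from 2.16 to 8.66 CPM in tumor, where 6 of 7 libraries lay below every spleen library (log2 fold change -1.06 ± 0.38, edgeR adjusted p = 0.059). The kinases Mvk (0.773 to 3.03 CPM in spleen, 0.254 to 3.32 CPM in tumor) and Pmvk (26.8 to 120.3 CPM and 2.01 to 153 CPM) overlapped between the tissues and did not pass.

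The 10 genes that carry farnesyl groups to squalene and then to cholesterol held 5 of the 10 higher calls, where 13% of all genes tested passed as higher. Msmo1, the methyl oxidase that removes methyl groups from the sterol ring, had 4.70, 6.42, 5.62 and 4.64 CPM in WT-labelled and 4.11, 4.68 and 5.62 CPM in Flox-labelled spleen libraries. Its tumor levels were 17.6, 119.9, 15.7 and 23.5 CPM in WT-labelled and 18.2, 15.98 and 16.2 CPM in Flox-labelled libraries. All 7 tumor libraries lay above all 7 spleen libraries, and TIL WT 2 lay far above the others. The log2 fold change was 2.51 ± 0.48 over both labels (edgeR adjusted p = 0.00286), 3.10 ± 0.77 within the WT-labelled libraries (0.0456) and 1.92 ± 0.39 within the Flox-labelled ones (0.0371). The value over both labels passed under every alternative run and was 1.92 without TIL WT 2.

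Cyp51, the demethylase that acts on lanosterol before Msmo1, stood at 11.8, 9.87, 13.7 and 9.27 CPM and 7.28, 8.85 and 7.204 CPM in WT-labelled and Flox-labelled spleen libraries. The tumor libraries had 20.7, 20.4, 14.9 and 31.0 CPM and 117, 16.1 and 22.6 CPM. The tissues did not overlap, with the lowest tumor library, TIL WT 3, just above the highest spleen library and TIL Flox 1 well above the rest. Cyp51 rose by a log2 fold change of 1.95 ± 0.46 (edgeR adjusted p = 0.00836), and the call was kept with any single library left out, at 1.23 without TIL Flox 1.

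Nsdhl, the dehydrogenase that works with Msmo1 in ring demethylation, had few counts in every library. It was at 2.19, 4.09, 2.45 and 3.09 CPM in WT-labelled and 2.74, 3.03 and 3.25 CPM in Flox-labelled spleen libraries, and at 5.67, 6.47, 5.48 and 4.54 CPM and 5.13, 6.21 and 4.65 CPM in those from tumor. Every tumor library was above every spleen library, by the narrow gap between TIL WT 4 and Spleen WT 2. Its log2 fold change of 0.95 ± 0.25 passed (edgeR adjusted p = 0.016) and was kept with any single library left out, but not with genes of low counts kept in the fit (adjusted p = 0.107).

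Hsd17b7, the ketosteroid reductase of the same demethylation complex, had its highest value in 1 library by far. Spleen levels were 1.05, 1.12, 1.94 and 2.90 CPM in WT-labelled and 13.9, 2.02 and 1.93 CPM in Flox-labelled libraries, and tumor levels were 10.2, 5.82, 269.8 and 8.05 CPM and 4.93, 7.48 and 5.28 CPM. TIL WT 3 was 19.4 times the second highest library, while Spleen Flox 1 lay above 6 of the 7 tumor libraries and the other 6 spleen libraries lay below them all. The log2 fold change of 2.75 ± 0.90 (edgeR adjusted p = 0.0414) became 1.21 without TIL WT 3 and then did not pass (adjusted p = 0.0971), and the call was lost in 10 of the 14 fits that left out a library.

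Ebp, the sterol isomerase that shifts the ring double bond, had 6.17, 6.10, 5.72 and 3.67 CPM and 4.96, 3.66 and 7.38 CPM in WT-labelled and Flox-labelled spleen libraries, and 13.2, 9.92, 10.4 and 10.3 CPM and 5.93, 7.86 and 10.6 CPM in tumor. In tumor, 6 libraries were above every spleen library, and TIL Flox 1 was within the spleen range. Ebp passed with a log2 fold change of 0.91 ± 0.28 (edgeR adjusted p = 0.0313), and lost the call in 5 of the 14 fits without 1 library (adjusted p = 0.0512 to 0.0827) and without both WT replicate 2 libraries (0.0567).

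Sqle, the squalene epoxidase, overlapped widely between the tissues. It was at 4.70, 25.2, 4.09 and 8.69 CPM in WT-labelled and 26.8, 6.44 and 4.04 CPM in Flox-labelled spleen libraries, and at 9.14, 19.95, 8.51 and 8.39 CPM and 10.7, 4.56 and 12.3 CPM in tumor libraries, with the highest values in Spleen Flox 1 and Spleen WT 2. Its log2 fold change of -0.07 ± 0.54 (edgeR adjusted p = 0.945) changed sign between fits. The remaining 4 genes did not pass: the squalene synthase Fdft1 ranged from 3.86 to 10.4 CPM in spleen and from 4.39 to 37.4 CPM in tumor, and the lanosterol synthase Lss from 1.16 to 4.01 CPM and from 1.52 to 33.7 CPM (log2 fold changes 0.75 ± 0.46 and 1.60 ± 0.63, the latter 0.17 without TIL Flox 3). The desaturase Sc5d (7.28 to 66.4 CPM in spleen, 4.47 to 70.1 CPM in tumor) and the final reductase Dhcr7 (4.25 to 27.5 CPM, 3.13 to 20.04 CPM) had negative log2 fold changes of -0.61 ± 0.66 and -0.55 ± 0.49. By annotation, Fdft1 overlaps 774 bases of Ctsb, and Lss lies over a long noncoding RNA; without the strand setting, reads of such pairs cannot be told apart.

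**Figure D2:**
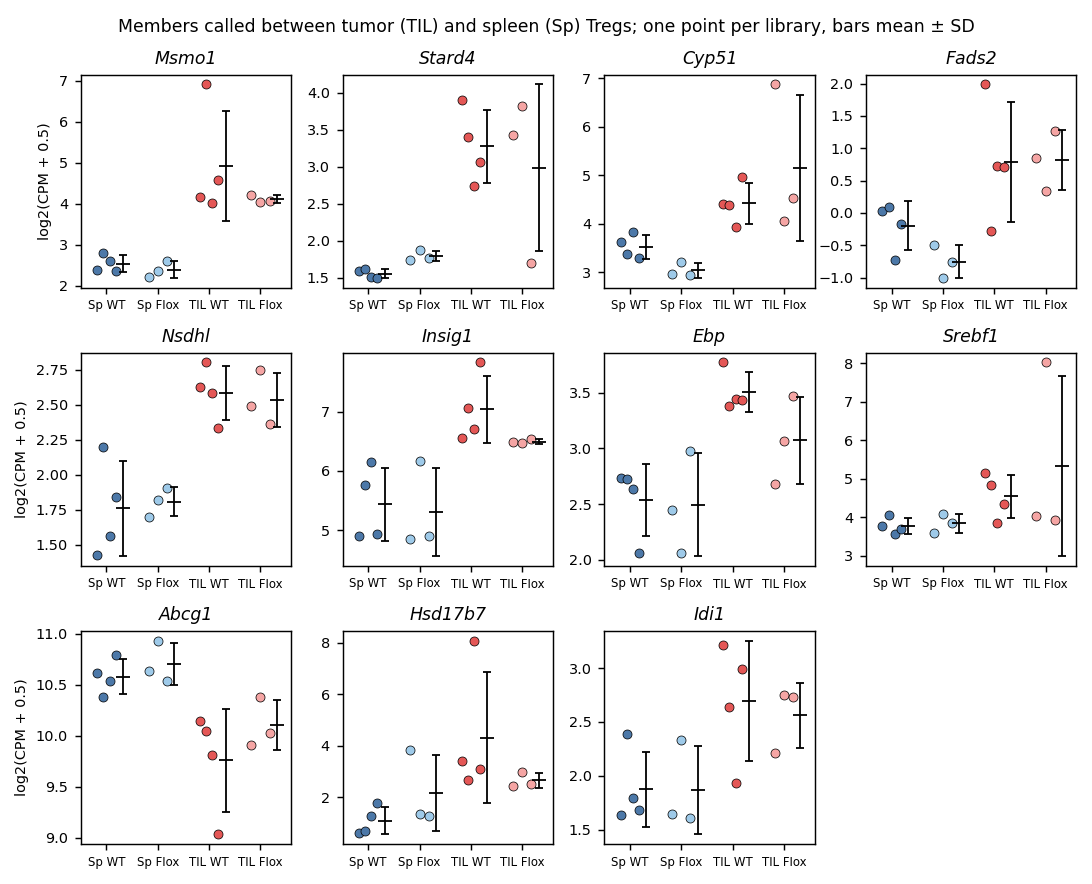
Levels of the 11 genes that passed between tumor (TIL) and spleen (Sp), as log2(CPM + 0.5), with 1 point per library and bars for the mean ± SD of the 4 WT-labelled or 3 Flox-labelled libraries of a tissue. Msmo1, Cyp51, Nsdhl and Insig1 have all 7 tumor points above all 7 spleen points, while the wide bars of Srebf1 in TIL Flox and Hsd17b7 in TIL WT each come from 1 library.

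Of the 5 SREBP regulators, Insig1 and Srebf1 passed as higher, where 13% of all genes tested did. Insig1, itself a target of SREBP that holds Scap back, stood at 29.5, 53.6, 70.5 and 29.9 CPM in WT-labelled and 28.3, 71.5 and 29.5 CPM in Flox-labelled spleen libraries. In tumor it stood at 94.2, 134, 105 and 228 CPM and 89.1, 88.0 and 92.4 CPM. The lowest tumor library, TIL Flox 2, was above the highest spleen library, Spleen Flox 2, and the log2 fold change was 1.43 ± 0.38 (edgeR adjusted p = 0.0163). The call was kept with any single library left out.

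Srebf1, the SREBP best known for fatty acid synthesis, had 13.3, 16.1, 11.4 and 12.6 CPM and 11.6, 16.4 and 14.0 CPM in WT-labelled and Flox-labelled spleen libraries. Its tumor values were 34.7, 28.0, 14.0 and 19.8 CPM and 15.9, 258 and 14.7 CPM. As many as 4 tumor libraries lay above every spleen library and the other 3 within their range, with TIL Flox 2 at 7.43 times the next library. The log2 fold change of 1.90 ± 0.60 (edgeR adjusted p = 0.0355) was 0.58 without TIL Flox 2 (adjusted p = 0.213), and the call was lost in 10 of the 14 fits without 1 library. Srebf1 shares 114 bases with Rai1 in the annotation.

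Srebf2, the SREBP best known for sterol synthesis, overlapped between the tissues over both labels. It was at 85.0, 121, 126 and 11.4 CPM in WT-labelled and 79.2, 54.7 and 69.8 CPM in Flox-labelled spleen libraries, and at 16.1, 297, 22.5 and 122 CPM and 13.0, 15.9 and 28.3 CPM in those from tumor. TIL WT 2 was highest and Spleen WT 4 lowest of all, and the log2 fold change of -0.61 ± 0.66 did not pass (edgeR adjusted p = 0.534). Among the Flox-labelled libraries alone, all 3 tumor values lay below all 3 spleen values. Scap, the escort, was at 14.7, 25.2, 26.7 and 19.5 CPM and 15.6, 65.3 and 37.0 CPM in spleen and at 12.8, 19.5, 33.9 and 18.7 CPM and 8.95, 12.3 and 14.0 CPM in tumor, in the same order of labels, with 4 tumor libraries below every spleen library (log2 fold change -0.80 ± 0.37, edgeR adjusted p = 0.139). Insig2 ranged from 3.93 to 44.6 CPM in spleen and from 5.56 to 302.5 CPM in tumor and did not pass (edgeR adjusted p = 0.129).

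Stard4, which carries cholesterol between membranes, was the most even gene of the list in spleen by the ratio of SD to mean, at 2.51, 2.57, 2.35 and 2.32 CPM in WT-labelled and 2.85, 3.16 and 2.90 CPM in Flox-labelled libraries. In tumor it was at 14.4, 10.03, 6.20 and 7.82 CPM and 10.3, 13.7 and 2.75 CPM. All tumor libraries but TIL Flox 3 lay above every spleen library, and that one lay within the spleen range. The log2 fold change was 1.87 ± 0.36 over both labels (edgeR adjusted p = 0.00301) and 2.06 ± 0.39 within the WT-labelled libraries (0.0183), and the call over both labels was kept under every alternative run.

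The fatty acid group holds 8 genes, and 1 of them passed, as higher, where 13% of all genes tested did. Fads2, the desaturase of the first step in making long polyunsaturated chains, was near the floor of detection in spleen, with 15 counts in all over the WT-labelled and 3 over the Flox-labelled libraries. Tumor libraries held 40 and 37 counts. Its levels were 0.523, 0.562, 0.102 and 0.386 CPM and 0.211, 0 and 0.0879 CPM in WT-labelled and Flox-labelled spleen libraries, and 3.47, 0.324, 1.15 and 1.13 CPM and 1.31, 0.761 and 1.90 CPM in tumor. Every tumor library but TIL WT 2 was above every spleen library. The fitted log2 fold change was 2.81 ± 0.66 (edgeR adjusted p = 0.00851). Fads2 had too few counts to be tested among the spleen libraries and entered the fit only through tumor, where it is high, so its call and fold carry little weight. Its neighbour Fads1, the next desaturase of the same chains, ranged from 2.90 to 5.11 CPM in spleen and from 2.03 to 9.33 CPM in tumor and did not pass (edgeR adjusted p = 0.0874).

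Fasn, the fatty acid synthase, had the opposite sign. It stood at 15.99, 29.6, 16.5 and 16.6 CPM in WT-labelled and 19.6, 79.6 and 25.1 CPM in Flox-labelled spleen libraries, and at 10.8, 11.9, 9.66 and 15.3 CPM and 18.8, 13.7 and 13.8 CPM in tumor. In tumor 6 of 7 libraries lay below every spleen library, and the log2 fold change of -0.98 ± 0.38 did not pass (edgeR adjusted p = 0.0767). Acly, which supplies cytosolic acetyl-CoA from citrate, had similar ranges of 24.9 to 42.5 CPM in spleen and 26.0 to 57.6 CPM in tumor. Of the stearoyl-CoA desaturases, Scd1 was at 3.97, 22.2, 2.86 and 2.12 CPM and 0.844, 2.65 and 1.67 CPM in WT-labelled and Flox-labelled spleen libraries, and at 7.86, 1.62, 1.87 and 5.22 CPM and 3.12, 1.78 and 7.71 CPM in tumor. Scd2, its neighbouring paralog, was at 15.7, 14.7, 34.9 and 70.5 CPM and 6.75, 9.98 and 10.8 CPM in spleen, and at 42.1, 33.3, 9.66 and 37.0 CPM and 14.2, 22.2 and 21.02 CPM in tumor. Neither passed between tissues (log2 fold changes 0.30 ± 0.63 and 0.56 ± 0.45), and reads shared by near-identical stretches of the pair could not be separated. The last 2 genes of the group, Acaca and Elovl6, are described with the labels and gave -0.72 ± 0.80 and 1.59 ± 0.75 between the tissues, neither of which passed. Acaca was at 0.027 without Spleen WT 4 and Elovl6 at 0.50 without TIL WT 3.

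Of the exporters, 1 passed, as lower, and 1 did not, where 11.2% of all genes tested passed as lower. Abcg1, which passes cholesterol to lipoproteins and is switched on by oxysterol receptors, had the highest level per kilobase of the list and was the gene that fell. It stood at 1571, 1329, 1485 and 1776 CPM in WT-labelled and 1590.2, 1957 and 1488 CPM in Flox-labelled spleen libraries, and at 1131, 1054, 898 and 523 CPM and 959, 1329.7 and 1043 CPM in those from tumor. All tumor libraries but 1 lay below every spleen library, with TIL Flox 2 just above Spleen WT 2, and the log2 fold change was -0.59 ± 0.19 (edgeR adjusted p = 0.0363). The call was lost in 8 of the 14 fits without 1 library, at adjusted p = 0.0538 to 0.0904. Abca1, the exporter to lipid-poor apolipoprotein, was at 3.45, 5.78, 4.09 and 1.16 CPM and 6.22, 4.30 and 5.18 CPM in spleen and at 6.40, 0.971, 1.59 and 0.794 CPM and 1.41, 38.5 and 1.27 CPM in tumor, in the same order of labels. TIL Flox 2 was far above the rest, and the log2 fold change of 0.48 ± 0.76 did not pass (edgeR adjusted p = 0.68) and was -1.18 without that library and -0.67 with limma voom.

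**Figure D3:**
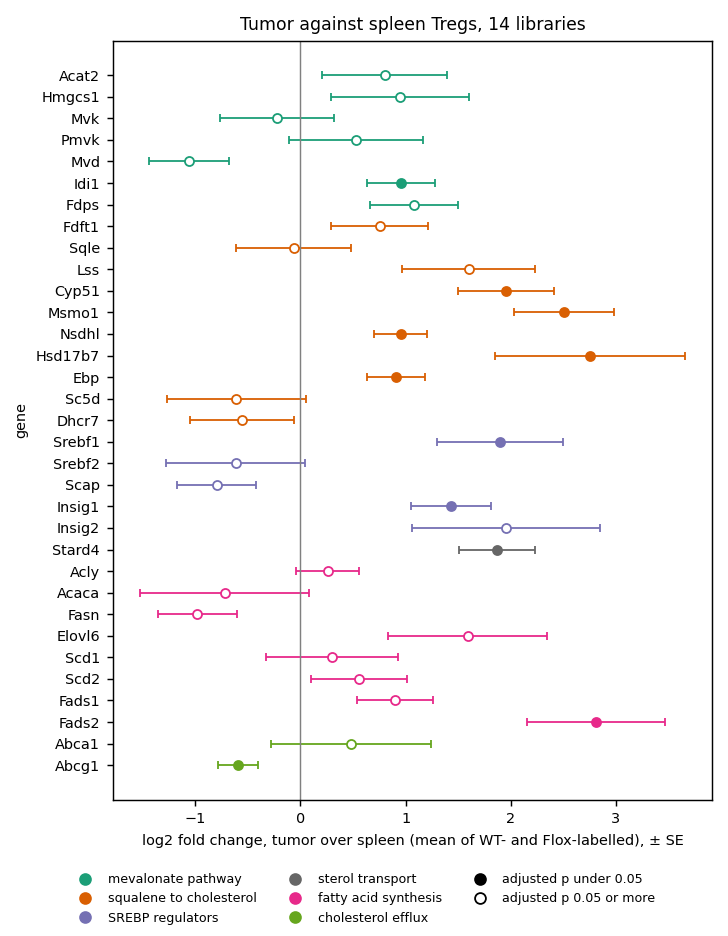
Log2 fold change of each of the 33 genes, tumor over spleen over both labels (x axis), with its SE as a bar, coloured by role, and filled where the adjusted p was under 0.05. Filled points run from Msmo1 (2.51), Hsd17b7 (2.75) and Fads2 (2.81) to Abcg1 (-0.59), and 5 of them are squalene-to-cholesterol genes, also the largest list, with 10 genes.

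Within the labels taken apart, fewer genes passed. Among the WT-labelled libraries (4 tumor against 4 spleen), Msmo1 and Stard4 passed in the higher direction, 2 of 32 genes tested, where 3.9% of the 10560 genes tested did, and 0 in the lower direction, where 3.2% did. The next were Hsd17b7 with a log2 fold change of 5.45 ± 1.48 (edgeR adjusted p = 0.0603), which was 2.31 and passed without TIL WT 3 (0.0448) and also passed with all 14 libraries in 1 fit (0.0213), and Ebp with 1.10 ± 0.36 (0.0964). With DESeq2, Ebp passed (adjusted p = 0.00194). Of the 32 genes, 7 had no overlap in the higher and 3 in the lower direction, where 8.79% and 9.34% of all genes tested did. The Stard4 call was lost without Spleen WT 1 (adjusted p = 0.0519) or Spleen WT 3 (0.0547), that of Msmo1 without any 1 of Spleen WT 1 to 4, TIL WT 1 and TIL WT 4 (0.0513 to 0.110), and both calls without both WT replicate 2 libraries (0.0774 for Stard4 and 0.0716 for Msmo1). Among the Flox-labelled libraries (3 against 3), Msmo1 passed, 1 of 32, where 4.15% of 10760 genes passed in the higher and 3.72% in the lower direction, and this call was lost without any 1 of the 6 libraries (0.0662 to 0.113). Acaca, the carboxylase that commits acetyl-CoA to fatty acids, followed with -2.78 ± 0.76 (0.0745), then Cyp51 with 2.86 ± 0.89 (0.101) and Srebf2 with -1.71 ± 0.54 (0.106). With DESeq2 each of them passed (adjusted p = 0.000985 for Acaca, 0.00258 for Cyp51 and 0.00287 for Srebf2). Cyp51 also passed with all 14 libraries in 1 fit (edgeR adjusted p = 0.0295). Among these 6 libraries, 5 genes had no overlap in the higher and 6 in the lower direction, where 15.1% and 18.2% of all genes tested did. These comparisons share their libraries with the comparison over both labels.

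Markers of other cell types and states were compared between the tissues beside these genes. The sums of the B cell and dendritic cell lists did not overlap between the tissues, and those of the other lists below did. The sum of 8 B cell markers was 314 to 1768 CPM in WT-labelled and 238 to 356 CPM in Flox-labelled spleen libraries, and 2.19 to 102 CPM and 1.65 to 2.51 CPM in tumor, where Pax5 was at 0 in every library. All 12 macrophage and monocyte markers had some count in each group, with sums of 7.83 to 260.0 CPM in spleen and 15.4 to 170.0 CPM in tumor. Adgre1 alone reached 199.7 CPM in Spleen WT 2 and 143.5 CPM in TIL WT 2. Of the 12, 6 passed as higher and 1 as lower in tumor, where 13% and 11.2% of all genes tested did, with a median log2 fold change of 1.68. Only 7 of the 12 had counts enough to be tested among the spleen libraries alone, and 11 among those of tumor. Some therefore entered this fit only through tumor, so the calls and the median carry little weight. The sum of 7 dendritic cell markers was 0.613 to 3.21 CPM in spleen and 6.01 to 28.1 CPM in tumor. Zbtb46 alone was at 0 to 1.55 CPM and 3.82 to 8.63 CPM, and Xcr1 reached 22.6 CPM in TIL WT 3. Flt3 went the other way, at up to 1.36 CPM in spleen and up to 0.422 CPM in tumor. Of the 7, 0 had counts enough to be tested among the spleen libraries alone, and 2 among those of tumor. Of 7 carcinoma and epithelial markers 3 or 4 had any count in a group, some of them under the detection floor. Their sums were 3.85 to 29.4 CPM in spleen and 0.366 to 4.47 CPM in tumor, where Krt19 and Cldn4 were at 0 in every library. Sums of 7 fibroblast and endothelial markers were 56.7 to 169 CPM in spleen and 36.8 to 271 CPM in tumor, with Pecam1 alone at 55.9 to 169 CPM and 2.38 to 223 CPM. The 4 matrix genes Col1a1, Col1a2, Col3a1 and Dcn passed as higher in tumor without overlap: Col3a1, for example, was at 0 to 0.738 CPM in spleen and 5.61 to 87.2 CPM in tumor (edgeR adjusted p = 0.000815). All 4 passed the filter on low counts only through tumor, where they are high, so these calls carry little weight. Of all genes tested, 13% passed as higher and 5.3% were higher without overlap. The 10 cell cycle genes summed to 165 to 654 CPM in spleen and 292 to 2088 CPM in tumor, and 10 immediate early and heat shock genes to 878 to 1633 CPM and 1042 to 2615 CPM. Their part in the results was not tested.

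The comparison that the study states, Flox-labelled against WT-labelled tumor Tregs, gave 0 of 33 genes at an adjusted p under 0.05 with edgeR, against 0% of the 10777 genes tested. At an unadjusted p under 0.05, 1 of the 33 was higher and 1 lower, where 5% and 3.08% of all genes were. The 4 genes with the smallest p were Acaca, Acat2, Srebf2 and Hsd17b7. Acaca was at 149.6, 21.1, 21.3 and 5.22 CPM in the WT-labelled and 3.62, 3.93 and 3.59 CPM in the Flox-labelled tumor libraries. All 3 Flox-labelled libraries lay below all 4 WT-labelled ones, and TIL WT 1 was far above the rest. Its log2 fold change was -3.73 ± 1.22 with edgeR (adjusted p = 0.584) and -3.78 with DESeq2, where it passed (adjusted p = 0.0107) together with 1.75% of the 6802 genes that DESeq2 tested in the lower direction, and limma voom gave 0 of the 33. Without TIL WT 1 the edgeR value was -2.06. Acaca overlaps 10 bases of Tada2a in the annotation.

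The other 3 rested on single libraries or overlapped. Acat2 had the values given for the mevalonate genes, and its log2 fold change of 2.84 ± 0.96 (edgeR adjusted p = 0.584) was 0.56 without TIL Flox 2. Hsd17b7 gave -3.64 ± 1.63 (0.584) and -0.45 without TIL WT 3. Srebf2 gave -2.57 ± 1.15 (0.584), with the Flox-labelled tumor libraries at or below 28.3 CPM and the WT-labelled ones from 16.1 to 297 CPM. Besides Acaca, Insig1 had no overlap, with the 3 Flox-labelled libraries below the 4 WT-labelled ones at a log2 fold change of -0.64 ± 0.56 (adjusted p = 0.748). That makes 2 of 33 lower without overlap, where 2.71% of all genes tested were, and 0 of 33 higher, where 2.49% were. The median log2 fold change of the 33 genes was -0.12, beside -0.06 for all genes tested, with 15 values positive and 18 negative.

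In spleen, 0 of 32 genes tested passed between the labels with edgeR, against 0% of 10935 genes, and DESeq2 and limma voom also gave 0 of them. At an unadjusted p under 0.05, 1 was higher and 1 lower, where 4.25% and 2.61% of all genes were. Elovl6, which lengthens saturated chains, was at 7.52, 4.74, 23.8 and 3.86 CPM in WT-labelled and 48.2, 55.2 and 34.6 CPM in Flox-labelled spleen libraries, and at 8.41, 7.01, 122 and 7.03 CPM and 110.1, 32.3 and 171 CPM in tumor. The 3 Flox-labelled spleen libraries lay above the 4 WT-labelled ones, but the log2 fold change of 2.19 ± 0.72 did not pass (edgeR adjusted p = 0.674). Scd2 lay lower in all 3 Flox-labelled spleen libraries (-1.90 ± 0.70, adjusted p = 0.674), and Scd1 (-2.19 ± 0.97) and Acat2 (-1.47 ± 0.66) followed at the same adjusted p. Without Spleen WT 2 the value of Scd1 was -0.84, and without Spleen WT 4 that of Scd2 was -1.25. Stard4 and Cyp51 were also without overlap, higher and lower, at 0.27 and -0.53, which makes 2 in each direction, where 2.96% and 3.01% of all genes tested were. The median of the 32 genes was 0.02, beside -0.06 for all genes.

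**Figure D4:**
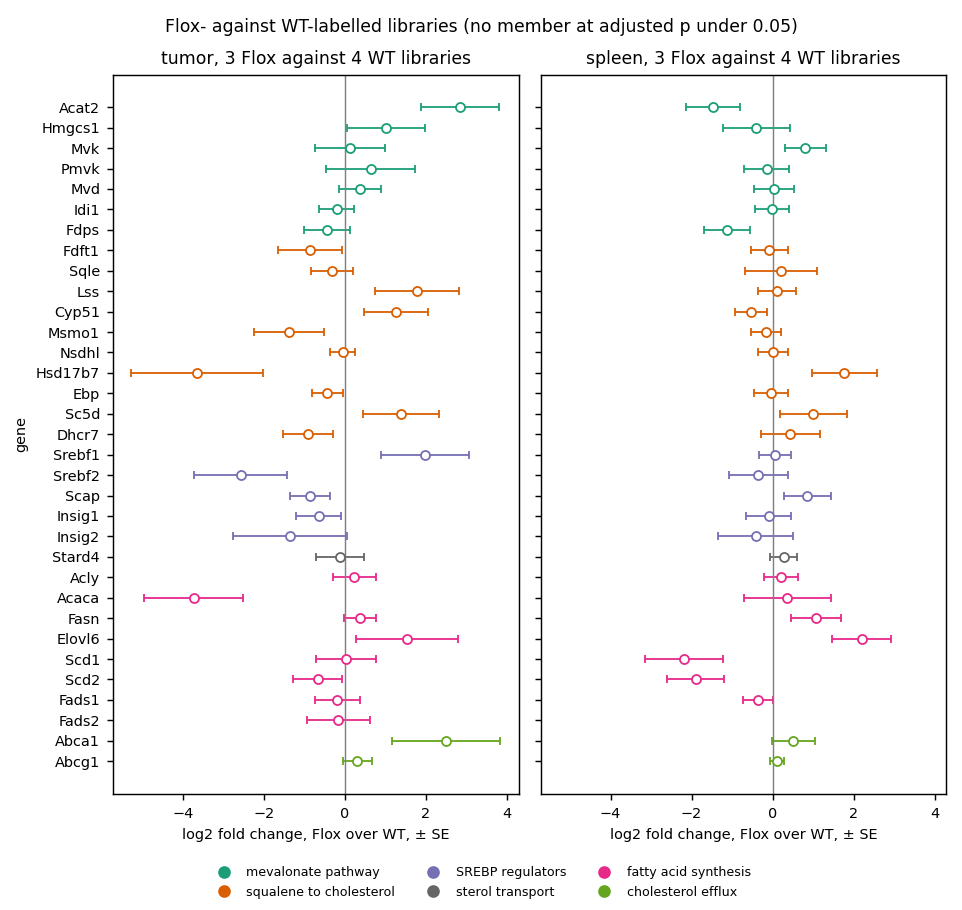
Log2 fold change of each gene, Flox-labelled over WT-labelled (x axis), in tumor (left, 33 genes) and spleen (right, 32 genes, without Fads2, which was too low to test), with its SE as a bar and roles in colour. All points are open because no gene had an adjusted p under 0.05, and the points furthest from 0 are Acaca (-3.73) and Hsd17b7 (-3.64) in tumor.

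Whether the Flox-labelled against WT-labelled contrast differed between tumor and spleen was tested as an interaction over all 14 libraries. It gave 0 of 33 genes with edgeR, against 0% of 12008 genes, and also 0 of the 33 with DESeq2 and limma voom, with 1 gene higher and 3 lower at an unadjusted p under 0.05 (5.2% and 5.59% of all genes). The smallest p belonged to Acat2, with a difference of 4.29 ± 1.23 on the log2 scale (edgeR adjusted p = 0.425), and Hsd17b7, with -5.31 ± 1.80, which rest on TIL Flox 2 and TIL WT 3: without those libraries the differences were 2.06 and -2.23. Acaca had -4.12 ± 1.67 (0.434), with spleen levels of 4.08, 4.90, 13.5 and 62.2 CPM in WT-labelled and 40.0, 6.19 and 37.2 CPM in Flox-labelled libraries that overlapped, and Scap had -1.69 ± 0.75 (0.45).

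A further 71 genes around the pathway were listed by function, and 61 of them had counts enough for the test over both labels. Of these, 7 passed as higher and 7 as lower in tumor, with a median log2 fold change of -0.14, where 13% and 11.2% of all genes tested passed. The counts of the groups within the list are read against the same shares. Of 15 tested genes of other sterol and isoprenoid branches 0 passed as higher and 5 as lower: Dhdds and Pdss2, which make the dolichol and ubiquinone side chains, Ggps1, the geranylgeranyl diphosphate synthase, Tm7sf2, a sterol reductase, and the mitochondrial thiolase Acat1. Tm7sf2 passed the filter on low counts only through spleen, where it is higher, so its call carries little weight. Dhdds was at 84.0, 367, 71.7 and 63.4 CPM and 97.9, 217 and 98.0 CPM in WT-labelled and Flox-labelled spleen libraries, and at 6.77, 19.3, 27.3 and 4.54 CPM and 3.22, 10.52 and 11.7 CPM in tumor. Pdss2 was at 1.15, 1.44, 21.2 and 26.9 CPM and 12.2, 6.07 and 11.6 CPM in spleen, and at 0, 0.755, 0.577 and 0.340 CPM and 0.503, 0.888 and 1.06 CPM in tumor. Both were lower in every tumor library than in any spleen library, by log2 fold changes of -3.61 ± 0.63 (edgeR adjusted p = 0.00163) and -4.12 ± 0.81 (0.00327), although Pdss2 passed the filter on low counts only through spleen, where it is high.

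Of 15 genes that process or degrade SREBP and its partners, 1 passed in each direction. Sec24d, a coat protein of the vesicles that leave the endoplasmic reticulum, was at 4.49, 3.37, 6.95 and 10.8 CPM and 2.53, 1.64 and 1.84 CPM in spleen, and at 12.6, 33.7, 22.5 and 8.96 CPM and 65.8, 40.8 and 11.6 CPM in tumor, with a log2 fold change of 3.03 ± 0.48 (edgeR adjusted p = 0.000954). Of 10 tested genes of cholesterol uptake, storage and oxysterols, 3 passed as higher and 0 as lower. Vldlr, a lipoprotein receptor, was at 0.209, 0.401, 0.204 and 0 CPM and 0.211, 0.253 and 0.0879 CPM in spleen, and at 4.76, 0.755, 0.577 and 4.76 CPM and 3.22, 1.90 and 5.39 CPM in tumor, with every tumor library above every spleen library. Most of its spleen values were under the detection floor and it passed the filter on low counts only through tumor, so the fitted log2 fold change of 3.97 ± 0.69 (edgeR adjusted p = 0.0016) carries little weight. Of 15 other genes of fatty acid synthesis and activation, 3 passed as higher and 1 as lower. Among these 15, Me1 (0 to 0.523 CPM in spleen) passed the filter on low counts only through tumor, where it is high. Of 6 targets and receptors of the oxysterol pathway none passed, with 1 lower at an unadjusted p under 0.05, where 17.9% of all genes tested were. Between Flox-labelled and WT-labelled libraries, 0 of 58 such genes passed with edgeR in tumor and 0 of 58 in spleen, with 4 higher and 2 lower at an unadjusted p under 0.05 in tumor (5% and 3.08% of all genes) and 2 higher and 1 lower in spleen (4.25% and 2.61%).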

How the data were processed

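Per the labels' protocols, RNA came from a Qiagen micro column kit, and GeneWiz made the libraries by its ultra-low input method. What the authors deposited is a single table of raw counts of reads by gene for the 14 libraries, and the submitters' processing notes name the build mm10. Aligner, counter, annotation and strand setting: not given in the sources used here. Genes were matched by NCBI Gene number: 25275 IDs had a symbol and 1904, with 1.25 to 1.95% of a library's counts, did not and stayed in the tests unnamed. The deposited counts went into edgeR 4.0.16 under R 4.3.3 (quasi-likelihood F test, TMM factors, filterByExpr by group, Benjamini-Hochberg adjustment over all genes tested, threshold 0.05). Only the libraries compared entered a fit, and all 14 entered those over both labels and of the difference. The SE of a log2 fold change is its size divided by the square root of F. DESeq2 1.42.0 and limma 3.58.1 were alternatives, and genes to which DESeq2 gave no adjusted p were left out. Exon lengths came from GENCODE M21 and promoters from RefSeq on GRCm38.p6.

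The 33 genes, the other lists and the tests were chosen with earlier results of these data known. Values in every library are given for Srebf1, Srebf2, Insig1, Hmgcs1, Sqle, Fasn, Scd1, Scd2, Abca1 and Abcg1 and for genes that passed or had the 4 smallest p in a comparison, and of the other pathway genes for at most 4 in a comparison. No library pair looked like the same library deposited again (chi-square per degree of freedom 101 to 444.3). The code was tested on simulated counts. Faxdc2, 1 of the 71 pathway genes listed, was not found by symbol.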

Additional observations from a re-analysis of the deposited data

Results flagged for a closer look

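In the groups of 4 WT-labelled libraries, 11 of 66 gene-by-tissue groups had 1 library far from the other 3, by the ratio of its gap to the group's range. Chance flags about 1 in 20 such groups of normal values, but over all genes tested 20.5% of the 23900 groups of this kind were flagged, a higher share than 11 of 66. Each of the 11 was a high value, 7 in tumor and 4 in spleen, with 3 each from Spleen WT 2 and TIL WT 1, 2 each from TIL WT 2 and TIL WT 3, and 1 from Spleen WT 4.

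Among sterol genes, Msmo1 stood at 119.9 CPM in TIL WT 2, where the other 3 libraries had 15.7 to 23.5 CPM, and Sqle at 19.95 CPM in the same library, where they had 8.39 to 9.14 CPM. Hsd17b7 was at 269.8 CPM in TIL WT 3 (others 5.82 to 10.2 CPM), Ebp at 13.17 CPM in TIL WT 1 (9.92 to 10.4 CPM) and Idi1 at 4.735 CPM in Spleen WT 2 (2.61 to 2.96 CPM). Among fatty acid genes, Acaca was at 149.6 CPM in TIL WT 1 (5.22 to 21.3 CPM) and at 62.2 CPM in Spleen WT 4 (4.08 to 13.5 CPM). Elovl6 was at 122.1 CPM in TIL WT 3 (7.01 to 8.41 CPM), Fasn at 29.61 CPM in Spleen WT 2 (15.99 to 16.6 CPM) and Scd1 at 22.15 CPM in Spleen WT 2 (2.12 to 3.97 CPM). The exporter Abca1 was at 6.401 CPM in TIL WT 1 (0.794 to 1.59 CPM). The groups of 3 Flox-labelled libraries were not tested in this way.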

How the results depend on the processing

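Of the 11 genes that passed between tumor and spleen over both labels, 6 kept the call with every single library left out (Msmo1, Stard4, Cyp51, Fads2, Nsdhl, Insig1) and 3 under every alternative that tested them (Msmo1, Stard4, Fads2), although Fads2 passed the filter on low counts only through tumor. The count of 11 became 15 with DESeq2, 5 with no filter on low counts and 7 to 10 with 1 library left out (7 without Spleen WT 3, Spleen WT 4, Spleen Flox 2 or TIL WT 1). In the WT-labelled libraries, the count of 2 became 6 with DESeq2, 4 with all 14 libraries in 1 fit, and 0 with no filter or without both WT replicate 2 libraries, and was 0 to 3 with 1 library left out (0 without Spleen WT 1 or 3). In the Flox-labelled libraries, the count of 1 became 9 with DESeq2, 2 with all 14 libraries (not Msmo1) and 0 with no filter, and was 0 without any 1 library. For Flox-labelled against WT-labelled tumor libraries, the count of 0 became 1 with DESeq2. Log2 fold changes, tumor over spleen, that changed sign were all of genes that did not pass: with limma voom, Abca1 -0.67 and Sqle 0.39; without both WT replicate 2 libraries, Sqle 0.12. With 1 library left out, they ran from -1.18 to 0.75 for Abca1, -0.31 to 0.52 for Sqle, -1.57 to 0.027 for Acaca, -0.33 to 1.15 for Acat2, -0.93 to 0.00799 for Mvk and -0.11 to 0.96 for Scd1. The cause was not tested.

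Libraries with the same replicate number did not deviate together (correlations of -0.03 to 0.05 over 13 pairs). These include pairs of a WT-labelled with a Flox-labelled library within a tissue. Between spleen and tumor, same-number pairs ran from -0.02 to 0.05 in WT-labelled and -0.03 to -0.002 in Flox-labelled libraries. Different-number pairs ran from -0.11 to 0.07 and -0.01 to 0.02. The main fits used no pairing, but low correlations across tissues cannot show that libraries came from different mice. Both WT replicate 2 libraries hold Ddx3y reads, and the labels do not say what a number marks. With the replicate block, Msmo1, Stard4 and Fads2 (3 genes) passed over both labels (Cyp51, Nsdhl and Insig1 had adjusted p = 0.0638, 0.0654 and 0.058 with edgeR), 0 in the WT-labelled and 0 in the Flox-labelled libraries, and the log2 fold changes of Abca1 and Sqle were -0.66 and 0.24.

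Over all genes, DESeq2 gave 266 calls between labels in tumor (limma voom 1), 124 in spleen (the filter at 5 CPM 1, all 14 libraries 4, without both WT replicate 2 libraries 1) and 153 for their difference, beside 0. Tumor against spleen gave 750 calls in the WT-labelled libraries (DESeq2 2430, all 14 libraries 1514, replicate block 173, without both WT replicate 2 libraries 329), 847 in the Flox-labelled ones (DESeq2 2910, no filter 457, replicate block 1, and 0 to 472 with 1 library left out) and 2897 over both labels (replicate block 1823). Over all alternatives, the count over both labels ran from 1823 to 3747. Leaving out both WT replicate 2 libraries could not be fitted for the Flox-labelled libraries alone, which hold none.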
